A study of Mus musculus with 6 samples.

Results

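The miRNAs described here come from the imprinted Dlk1-Dio3 region of mouse chromosome 12, which holds one of the largest miRNA clusters of the mammalian genome. They were taken as the rows of the count tables that carry the names of 56 mature miRNAs of the cluster, out of 1964 mature miRNAs listed. The list goes by name and uses no threshold on a measured value, but it was drawn up with earlier results of these data known. The 56 derive from 45 hairpins, 11 of which contribute both arms. Such names carry the prefix of the mouse, as in mmu-miR-127-3p, which is left out below except beside the sequences. Of the 56, 32 had 5 or more reads summed over all libraries, 15 had fewer and 9 had 0.

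The libraries were small RNA libraries of exosomes, the small vesicles that cells shed into their medium. Fb exosomes (3 libraries) came from dermal fibroblasts of the dorsal skin of db/db mice aged 14 weeks, a leptin receptor mutant with obesity and diabetes, grown with 10% fetal bovine serum and then 2 days without serum. ESC exosomes (3 libraries) came from epidermal stem cells of the dorsal skin of telogen C57BL/6 mice aged 3 weeks, grown in serum-free keratinocyte medium. All cells were at passage 0 to 1, and the strain label reads C57BL/6 for the Fb libraries too. Cell type, donor genotype, age and medium differ together and cannot be told apart. The labels call the libraries biological replicates and tie none to an animal. Each p-value therefore reflects variation among these 6 libraries, which may be technical.

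In imprinted regions a gene is read from only 1 of the parental chromosomes. At Dlk1-Dio3 the protein genes Dlk1, Rtl1 and Dio3 are expressed from the paternal chromosome, and the non-coding RNAs Meg3, Rian and Mirg, with the miRNAs and small nucleolar RNAs cut from them, from the maternal one. Several miRNAs lie opposite Rtl1, match its transcript perfectly and direct its cleavage. The cluster is known for high expression in embryo, placenta and brain and for low levels in most other adult tissues. A miRNA finds its targets mainly by its seed, bases 2 to 8 from the 5′ end, and each hairpin can release a 5p and a 3p arm.

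The members lie on the plus strand between 109563692 and 109743795 of chromosome 12 (GRCm38), a stretch of 180.1 kb. Assigned to the gene they overlap, or else the nearest, of 4 anchor genes in GENCODE M21, 3 members belong to the Meg3 end, 11 to Rtl1, 2 to Rian and 40 to Mirg. Rtl1 itself runs on the minus strand, from 109589193 to 109600330, so the miRNAs within it are antisense to it.

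The mature sequences of the most abundant members are shown, with the seed in capitals, because the members share a locus and their letters show what else they share. They are from RefSeq (GRCm38.p6), which matched 53 of the 56 by name. In order along the cluster they read, 5′ to 3′:
mmu-miR-127-3p: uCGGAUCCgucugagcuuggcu
mmu-miR-434-5p: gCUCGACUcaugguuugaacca
mmu-miR-434-3p: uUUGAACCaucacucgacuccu
mmu-miR-341-3p: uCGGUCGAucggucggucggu
mmu-miR-411-5p: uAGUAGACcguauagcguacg
mmu-miR-299a-3p: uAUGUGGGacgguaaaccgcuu
mmu-miR-300-3p: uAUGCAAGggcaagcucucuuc
mmu-miR-381-3p: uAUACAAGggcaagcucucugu
mmu-miR-382-5p: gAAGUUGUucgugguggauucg
mmu-miR-382-3p: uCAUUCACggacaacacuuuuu
mmu-miR-541-5p: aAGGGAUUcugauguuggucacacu
mmu-miR-409-3p: gAAUGUUGcucggugaaccccu
No RefSeq entry was matched for miR-376c-3p, miR-487b-3p or miR-485-5p.

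The 53 matched sequences carry 53 different seeds, so no seed was shared between members. For 43 of them no other mature miRNA among the 1679 in RefSeq has the same seed. miR-381-3p is printed, although less abundant, because it is close to miR-300-3p. These sequences differ at 3 of 22 bases, counted from the 5′ end of miR-300-3p as G4A, U21G and C22U, and only the first falls in the seed. miR-376b-3p and miR-376a-3p also differ at 3 bases (A4G, C13A and U20G), so reads of such pairs could be divided between their rows. Mature lengths were 19 to 25 bases with a median of 22. Adenine began 37.7% of the member sequences, against 25.6% of all RefSeq mouse miRNAs, and uracil 43.4%, against 40.9%.

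Mature miRNA reads numbered 49019 to 177990 in the Fb libraries and 1392859 to 1522604 in the ESC libraries, so 1 read weighs far more in Fb. A floor of 3 reads per group is worth 8.68 CPM (counts per 1000000 mature miRNA reads) over the Fb libraries and 0.683 CPM over the ESC libraries. Replicates correlated at Pearson r of 0.777 to 0.925 among Fb and 0.965 to 0.982 among ESC libraries, on log2(CPM + 1) across 296 miRNAs, which are not independent replicates. Fb replicate 1 was the shallowest. Epithelial marker miRNAs (10 of 10 in the files) held 1.63% to 2.17% of miRNA reads in Fb and 18.9% to 20.1% in ESC exosomes, with miR-96-5p at 0 in Fb. The 9 mesenchymal markers held 19.7% to 30.9% in Fb and 0.0679% to 0.0766% in ESC exosomes, with miR-145a-3p and miR-214-5p at 0 in ESC. The 8 blood and serum markers held 0.0427% to 1.15% in Fb and 0.000890% to 0.0310% in ESC exosomes, with miR-142a-3p at 0 in both, miR-150-5p at 0 in Fb and miR-223-3p at 0 in ESC. The 4 muscle markers held 0.0466% to 0.171% in Fb and 0.0123% to 0.0161% in ESC exosomes, with miR-133b-3p at 0 in both. The 6 neural markers held 0.0371% to 0.0904% in Fb and 0.0286% to 0.0348% in ESC exosomes, with miR-9-5p at 0 in both. The part of these cell types in the results was not tested.

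Cluster miRNAs took a larger share of mature miRNA reads in Fb than in ESC exosomes. The 56 members together took 5005, 3955 and 4640.3 CPM in Fb replicates 1 to 3, against 81.1, 59.2 and 77.3 CPM in ESC replicates 1 to 3. The means were 4533 ± 533 CPM in Fb and 72.5 ± 11.7 CPM in ESC exosomes (SD, n = 3 each), a ratio of 62.5. The groups were far apart and the replicates of each group close together. No p-value is given for a sum over this list, and those of single members further on are adjusted over all miRNAs tested. In vesicles pooled from a culture, fewer vesicles that carry a miRNA and fewer copies per vesicle cannot be told apart.

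The size of that ratio depends on the total it is set against. Mature miRNAs were 1.46% ± 0.751 of assigned reads in Fb and 14.0% ± 0.710 in ESC exosomes (SD, n = 3 each). Relative to all assigned reads the cluster was at 30.7, 81.0 and 79.7 CPM in the Fb libraries, against 11.4, 7.86 and 11.3 CPM in the ESC libraries, a ratio of 6.25. Every Fb library was above every ESC library on both scales. Unless stated otherwise, CPM below is relative to mature miRNA reads.

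A few members made up much of the cluster, and not the same ones in both groups. miR-541-5p, miR-434-3p and miR-127-3p held 47.5% ± 2.28 of cluster reads in Fb and 23.0% ± 5.77 in ESC exosomes (SD, n = 3 each), and they are the 3 with the most Fb reads. The 3 with the most ESC reads were miR-411-5p, miR-376c-3p and miR-127-3p, which held 13.9% ± 3.74 in Fb and 38.5% ± 1.72 in ESC exosomes. Each contrast follows in part from how its 3 were picked. Without the first 3, the rest of the cluster was at 2386 ± 377 CPM in Fb and 56.3 ± 12.8 CPM in ESC exosomes, a ratio of 42.4.

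**Figure D1:**
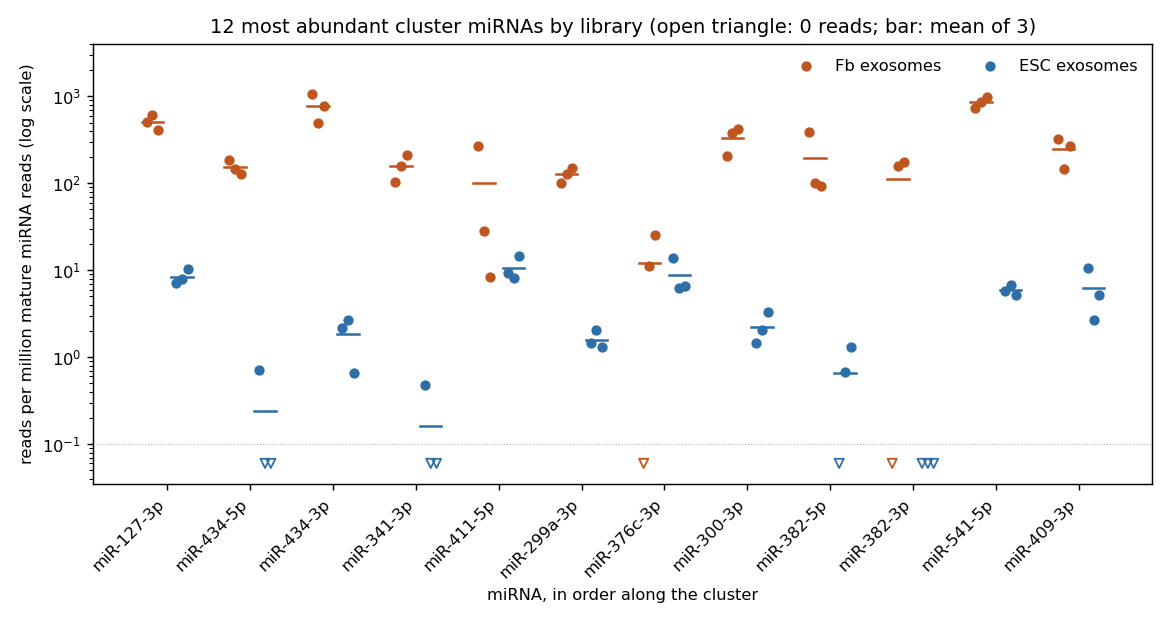
Level of the 12 most abundant members in every library, as CPM relative to mature miRNA reads on a log axis, with Fb exosomes left of ESC exosomes for each miRNA, a bar at the mean of 3 libraries and open triangles for 0 reads. For 9 members every Fb point lies above every ESC point, against 21.0% of the 624 miRNAs with 5 or more reads. The groups overlap for miR-411-5p, miR-376c-3p and miR-382-3p. The 12 were picked by summed reads, so the 9 are a description only.

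Differences were tested with edgeR's quasi-likelihood test across all mature miRNAs that passed a filter on low counts, with Benjamini-Hochberg adjustment over the 325 tested. Positive log2 fold changes mean higher in Fb exosomes. Of the 325, 27.7% passed an adjusted p of 0.05 as higher in Fb and 21.8% as higher in ESC exosomes. Only 19 of the 56 members entered, 18 of them called higher in Fb and 1, miR-411-5p, not passing. The filter asked for 12.7 CPM in at least 3 libraries, and of these 19 members 18 reached that level in every Fb library and 0 in every ESC library. miR-411-5p reached it in 2 Fb libraries and 1 ESC library. The 18 entered through their Fb reads, so the count of calls is given as a description only.

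A fit of every mature miRNA with at least 5 summed reads admits the 32 members described here. In that fit edgeR called 26 of the 32 higher in Fb and 0 higher in ESC exosomes, against 15.0% and 13.9% of 628 miRNAs. Calls higher in ESC exosomes were 0 also at an unadjusted edgeR p of 0.05, and 0 by DESeq2 and limma with the stricter filter. Many members met the 5-read filter only through Fb reads, such as miR-434-5p with 50 Fb reads and 1 ESC read. The counts of this fit, also by segment and arm below, are therefore descriptions only. The highest ESC mean of a member was 10.6 CPM, near the Fb floor of 8.68 CPM, so a call higher in ESC exosomes was hardly possible. The 6 that did not pass were miR-411-5p, miR-376c-3p, miR-493-5p, miR-494-3p, miR-487b-3p and miR-543-3p. With no count filter 46 members entered and 30 were called higher in Fb exosomes, against 11.4% of 968 miRNAs.

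The calls were also made with other tools and scalings. On the same filtered set, and so again as a description only, DESeq2 called 19 of the 19 members higher in Fb exosomes (31.4% of all miRNAs tested), and limma-trend 18 of 19 (24.3%). With at least 20 reads in each group only miR-127-3p, miR-541-5p and miR-409-3p entered, and 3 of 3 were called (24.3% of 206). Fitted together with all RNAs of the files, 8 members entered and 7 were called, against 5.21% of the 307 miRNAs in that fit. This last scaling lowered the median log2 fold change of all miRNAs to -1.15, against 0.11 with miRNA reads alone, and miR-411-5p, the member not called, stood at 0.01 (edgeR adjusted p = 0.996).

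Summed reads give the same comparison with a filter on the total alone. Over the 32 members, the median log2 ratio of summed reads per miRNA reads was 5.54 in favour of Fb exosomes. The ratio was above 0 for 32 of 32 members, against 430 of all 624 miRNAs with 5 or more reads. The lowest was 0.72, and the highest was 10.11 for miR-341-3p, which rests on 0.667 of an ESC read as deposited. The 3 members with 0 ESC reads stand lower, at the value that the floor of 3 reads sets, so the order at the top is not to be read. Over all 624 miRNAs with 5 or more reads that median was 1.05, with groups at 0 reads set to the floor of 3 reads. Of the 624, 132 had 0 Fb reads and 9 had 0 ESC reads. The floor, worth more CPM in Fb, can therefore raise that median and the 430. In the 5-read fit by edgeR the median log2 fold change was -0.67 over 628 miRNAs and 5.19 over the 32 members. Every Fb library was above every ESC library for 21 of the 32 members, against 21.0% of all 624 miRNAs, and every ESC library was above every Fb library for 0, against 28.7%. Relative to all assigned reads every Fb library was above for 17 of the 32, against 5.93% of the 624. On that scale every ESC library was above for 1, miR-376c-3p, against 65.5%. Depth differs between the groups, and its part in these counts was not tested.

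**Figure D2:**
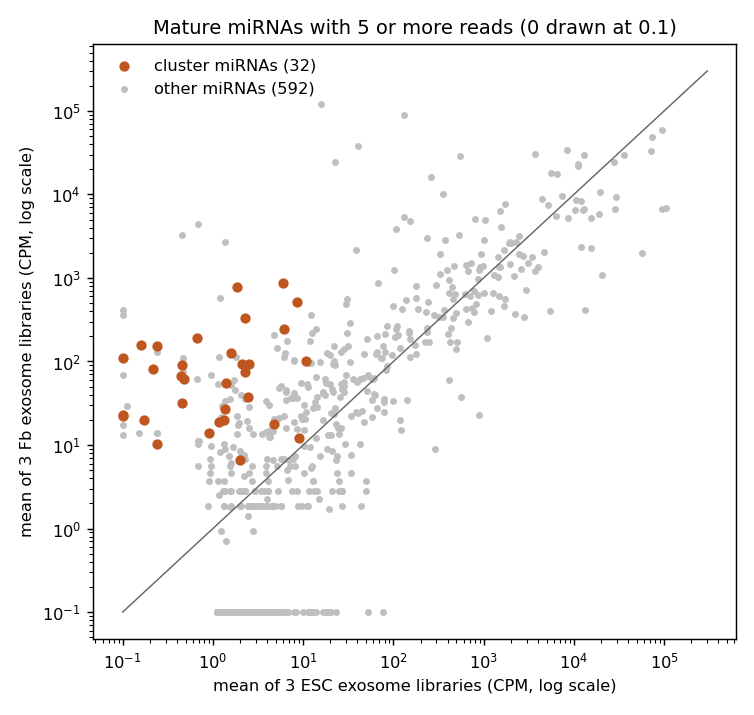
Mean CPM of 3 Fb exosome libraries (vertical) against the mean of 3 ESC exosome libraries (horizontal), on log axes, for 624 mature miRNAs with 5 or more reads, with a line of equality and values of 0 drawn at 0.1. The 32 cluster miRNAs lie above the line, at ESC means of 0 to 10.6 CPM. By the ratio of summed reads, with 0 set to the floor of 3 reads, 430 of the 624 were higher in Fb.

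Near Rtl1 the differences between the groups were large. This stretch carries miR-337, miR-540 and miR-665 just outside Rtl1 and miR-431, miR-433, miR-127, miR-434 and miR-136 opposite it. miR-127, miR-434, miR-433, miR-431 and miR-136 are the miRNAs known in mouse to guide cleavage of the Rtl1 transcript, which encodes a retrotransposon-derived protein needed in the placenta. Of the 8 members with 5 or more reads, 8 were called higher in Fb exosomes in the 5-read fit (background 15.0%), with a median log2 fold change of 6.00.

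miR-127-3p (hairpin at 109592846 to 109592915) had 504, 617 and 411 CPM in Fb replicates 1 to 3, against 7.11, 7.99 and 10.2 CPM in ESC replicates 1 to 3. The lowest Fb library was far above the highest ESC library. Its log2 fold change was 5.49 (SE 0.40, edgeR adjusted p = 5.66e-05).

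miR-434-3p (hairpin at 109594506 to 109594599) had 1060.4, 499.9 and 766 CPM in Fb, against 2.15, 2.70 and 0.657 CPM in ESC exosomes. It was highest in Fb replicate 1, and the groups did not overlap. Its log2 fold change was 8.17 (SE 0.51, edgeR adjusted p = 3.37e-05).

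The other arm of that hairpin, miR-434-5p, had 184, 146 and 126 CPM in Fb, against 0.718, 0 and 0 CPM in ESC exosomes. The whole ESC signal was 1 read, against 50 Fb reads, a ratio of 635 with an exact 95% counting interval of 109 to 25595. It passed the test (edgeR log2 fold change 8.21, SE 0.70, adjusted p = 1.23e-04), with a log2 fold change of 9.13 without ESC replicate 1 and 7.45 without ESC replicate 2. Both arms of miR-434 were thus separate between the groups.

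miR-431-5p had 40.8, 67.4 and 135 CPM in Fb, against 0, 0 and 0.657 CPM in ESC exosomes. miR-433-3p had 81.6, 15.0 and 67.4 CPM in Fb, against 2.87, 0.676 and 0.657 CPM in ESC exosomes. Both were higher in every Fb library. The edgeR log2 fold change of miR-431-5p was 7.44 (SE 0.89, adjusted p = 6.36e-04), and 6.77, 6.63 and 8.44 without ESC replicates 1, 2 and 3. That of miR-433-3p was 4.60 (SE 0.83, adjusted p = 0.00364), and 5.29 without ESC replicate 1 and 4.00 without ESC replicate 2. Relative to assigned reads the groups overlapped for miR-433-3p. miR-540-3p, which lies between miR-337 and miR-665, had 143, 16.9 and 42.1 CPM in Fb, against 0, 0 and 1.31 CPM in ESC exosomes (edgeR log2 fold change 6.03, SE 1.13, adjusted p = 0.00437).

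miR-136-3p and miR-337-5p were rare. The first had 9 Fb and 5 ESC reads and was at 0 in Fb replicate 1 and ESC replicate 3. The second had 7 Fb reads and 1 ESC read, at 20.4, 22.5 and 16.8 CPM in Fb, against 0.179, 0.338 and 0 CPM in ESC exosomes. The groups overlapped for miR-136-3p and not for miR-337-5p. Of the 45 hairpins 7 overlap a gene on the opposite strand in GENCODE, those of miR-136, miR-337, miR-299a, miR-380, miR-376a, miR-539 and miR-409. The use of strand in counting is not given in the sources used here, so the values of these members are uncertain.

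Between Rtl1 and Mirg lies Rian, a long non-coding RNA whose introns hold many small nucleolar RNAs and which overlaps miR-341 and miR-370. miR-341-3p (hairpin at 109611500 to 109611595), largely repeats of the same 4 letters as its sequence shows, had 102, 157 and 209.9 CPM in Fb, against 0.479, 0 and 0 CPM in ESC exosomes. The ESC value is a fraction of 1 read, and the ratio of 58 Fb reads to 1 rounded ESC read was 737 (exact 95% counting interval 127 to 29611). ESC replicate 1 held 0.667 of a read also in the miR-341-5p row and in the hairpin row. The hairpin row held 2.89 reads in Fb replicate 1, so the counts of this arm are uncertain. miR-341-3p passed the test (edgeR log2 fold change 8.35, SE 0.79, adjusted p = 1.89e-04), with a log2 fold change of 9.24 without ESC replicate 1 and 7.56 without ESC replicate 2. miR-370-3p had 1 Fb and 1 ESC read.

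At the Meg3 end, miR-493-5p was one of the few members with more ESC than Fb reads. It had 0, 11.2 and 42.1 CPM in Fb, against 5.74, 5.41 and 3.28 CPM in ESC exosomes, and the groups overlapped. It did not pass the 5-read fit (edgeR adjusted p = 0.302). Its neighbour miR-673-5p had 0, 39.3 and 56.1 CPM in Fb, against 0.718, 0 and 0.657 CPM in ESC exosomes, and was called higher in Fb exosomes (edgeR adjusted p = 0.00324) although Fb replicate 1 had 0 reads. In that library a count of 0 allows up to 61.2 CPM, above every value of either member.

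The Mirg end holds most hairpins, in a tight row from miR-379 to miR-410, known in rat neurons to be induced together by activity. Of its 40 members 21 had 5 or more reads, and 16 of these were called higher in Fb exosomes in the 5-read fit (background 15.0%), with log2 fold changes from -0.04 to 8.96 over the 21.

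miR-541-5p (hairpin at 109742409 to 109742498) was the member with the most reads, at 731, 865 and 985 CPM in Fb, against 5.74, 6.76 and 5.25 CPM in ESC exosomes. Each group was tight, and the groups were far apart. Its log2 fold change was 6.78 (SE 0.38, edgeR adjusted p = 3.37e-05). In Fb exosomes it ranked between 85 and 98 among all mature miRNAs of a library.

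miR-300-3p (hairpin at 109724313 to 109724391) had 204, 376 and 421 CPM in Fb, against 1.44, 2.03 and 3.28 CPM in ESC exosomes. Its relative miR-381-3p had 81.6, 54.4 and 50.5 CPM in Fb, against 1.44, 0 and 0 CPM in ESC exosomes. Both rows were higher in every Fb library. Log2 fold changes were 6.78 (SE 0.57, edgeR adjusted p = 1.23e-04) for miR-300-3p and 6.23 (SE 0.86, edgeR adjusted p = 0.00104) for miR-381-3p. miR-381-3p rested on 20 Fb and 2 ESC reads, and its log2 fold change was 7.83 without ESC replicate 1 and 5.42 without ESC replicate 2.

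miR-409-3p (hairpin at 109743158 to 109743236) had 326, 146 and 268 CPM in Fb, against 10.6, 2.70 and 5.25 CPM in ESC exosomes. It was one of the better-read members in ESC exosomes, and ESC replicate 1 was the highest of them. Its log2 fold change was 4.82 (SE 0.59, edgeR adjusted p = 6.79e-04), and 4.18 without ESC replicate 2.

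miR-299a-3p (hairpin at 109710638 to 109710700) had 102, 129 and 151 CPM in Fb, against 1.44, 2.03 and 1.31 CPM in ESC exosomes. The groups did not overlap, and both were even across replicates. The log2 fold change was 5.85 (SE 0.48, edgeR adjusted p = 1.18e-04). Its gene on the opposite strand is miR-299b, whose 3p arm has the same seed.

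The end of the row holds miR-369 and miR-410. miR-369-3p had 40.8, 107 and 75.8 CPM in Fb, against 2.15, 0.676 and 3.94 CPM in ESC exosomes. miR-410-3p had 143, 50.6 and 84.2 CPM in Fb, against 4.31, 1.35 and 0.657 CPM in ESC exosomes. Both were higher in every Fb library. The edgeR log2 fold change of miR-369-3p was 4.69 (SE 0.70, adjusted p = 0.00163), and 4.06 without Fb replicate 2 and 3.91 without ESC replicate 2. That of miR-410-3p was 4.85 (SE 0.70, adjusted p = 0.00139), and 5.61 without ESC replicate 1.

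miR-134-5p (hairpin at 109734139 to 109734209), which limits dendritic spine size in rodent neurons, had 179.5, 33.7 and 60.2 CPM in Fb, against 0, 1.35 and 0 CPM in ESC exosomes. It was highest in Fb replicate 1, and the groups did not overlap. The log2 fold change was 6.58 (SE 1.01, edgeR adjusted p = 0.00170), and 5.88 without Fb replicate 1 and 8.07 without ESC replicate 2.

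Some members were uneven within the Fb group. miR-411-5p (hairpin at 109710175 to 109710256) had 265, 28.1 and 8.42 CPM in Fb, against 9.33, 8.11 and 14.4 CPM in ESC exosomes. Fb replicate 1 was far above the other Fb libraries, and Fb replicate 3 lay inside the ESC range. It did not pass the test (edgeR log2 fold change 2.35, SE 1.00, adjusted p = 0.0900), with a log2 fold change of 0.51 without Fb replicate 1 and an adjusted p = 0.0433 without Fb replicate 3. By DESeq2 its adjusted p was 0.0405. It had more summed reads in ESC exosomes than any other member, 47, against 19 in Fb exosomes.

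Its neighbour miR-379-5p had 224, 22.5 and 33.7 CPM in Fb, against 2.87, 2.03 and 2.63 CPM in ESC exosomes. Fb replicate 1 again stood above the other Fb libraries, and the groups did not overlap (edgeR log2 fold change 4.33, SE 0.89, adjusted p = 0.00653). Without Fb replicate 1 the log2 fold change was 3.00. miR-323-3p had 20.4, 16.9 and 75.8 CPM in Fb, against 0, 1.35 and 5.91 CPM in ESC exosomes. It passed (edgeR log2 fold change 3.51, SE 1.13, adjusted p = 0.0363) but not without Fb replicate 3 (log2 fold change 2.39, edgeR adjusted p = 0.276). Relative to assigned reads, overlap between the groups was found for miR-323-3p, miR-369-3p and miR-494-3p.

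The miR-376 family, whose transcripts are known targets of adenosine-to-inosine editing, holds the member with the lowest ratio. miR-376c-3p (hairpin at 109722718 to 109722803) had 0, 11.2 and 25.3 CPM in Fb, against 13.9, 6.17 and 6.60 CPM in ESC exosomes. The groups overlapped on this scale, with 5 Fb and 38.5 ESC reads. In the 5-read fit its log2 fold change was -0.04 (SE 0.88, edgeR adjusted p = 0.973), and the ratio of summed reads was 1.67 (exact 95% counting interval 0.514 to 4.26).

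The row of the miR-376c hairpin held reads in the ESC libraries only. In the ESC libraries the mature row held 19.3, 9.12 and 10.0 reads and the hairpin row 8.67, 9.12 and 10.0 reads. miR-376a-3p had 7 Fb and 4 ESC reads, with 0 and 5 reads in its hairpin row, and was called higher in Fb exosomes in the 5-read fit (edgeR adjusted p = 0.0367). How reads were divided between mature and hairpin rows is not given in the sources used here, so the ESC values of miR-376c-3p and miR-376a-3p are uncertain.

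The remaining Mirg members with 5 or more reads were low. miR-154-5p had 10 Fb reads and miR-496a-3p 8, with 0 ESC reads for both. With ESC set to the floor of 3 reads, the excess in Fb exosomes was 42.4-fold for miR-154-5p and 33.9-fold for miR-496a-3p. The lower ends of their exact 95% counting intervals were 28.5-fold and 21.7-fold. miR-496a-3p was even across the Fb libraries, at 20.4, 22.5 and 25.3 CPM, while miR-154-5p was at 0 in Fb replicate 1. miR-380-3p had 9 Fb and 6 ESC reads and was called higher in Fb exosomes in the 5-read fit (edgeR adjusted p = 0.0297), with 4.90 ESC reads in its hairpin row. miR-494-3p (6 Fb and 6 ESC reads), miR-543-3p (3 and 9) and miR-487b-3p (4 and 1) did not pass, with edgeR adjusted p = 0.0546, 0.478 and 0.0574.

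**Figure D3:**
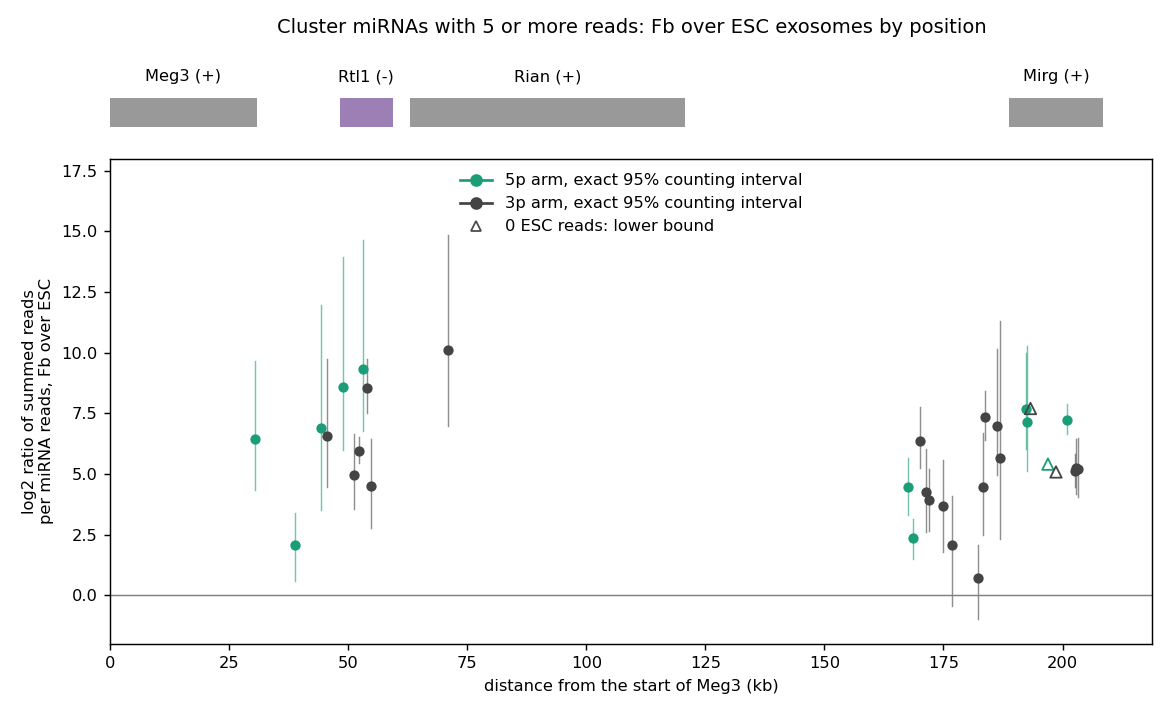
Log2 ratio of summed reads per mature miRNA reads, Fb over ESC exosomes, for the 32 members with 5 or more reads against distance from the start of Meg3 in kb. Bars are exact 95% counting intervals, and the bars on top are the 4 anchor genes with their strands. Open triangles are members with 0 ESC reads, drawn with ESC at the floor of 3 reads. Points reach 10.11 at miR-341-3p in Rian (over 0.667 of an ESC read) and drop to 0.72 at miR-376c-3p within the Mirg row.

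The make-up of the cluster was also set side by side, as shares of its reads and with no test. Members near Rtl1 held 37.5% ± 2.89 of cluster reads in Fb and 19.8% ± 3.00 in ESC exosomes (SD, n = 3 each). The Mirg end held 57.7% ± 0.358 in Fb and 72.3% ± 4.89 in ESC exosomes. The Meg3 end held 1.24% ± 1.16 in Fb and 7.40% ± 2.08 in ESC exosomes, where miR-493-5p gave most of it.

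Rian members held 3.57% ± 1.38 in Fb and 0.492% ± 0.852 in ESC exosomes. In each of the 4 segments the shares of the Fb and ESC libraries did not overlap. The shares of a library add up to the whole cluster, so these are not 4 separate results. Each library gave 245 to 704 cluster reads in Fb and 87.6 to 118 in ESC exosomes, so an ESC share can rest on few reads. Without miR-434-3p, its most abundant member over all libraries but with only 8 ESC reads, the Rtl1 segment held 24.8% of the remaining cluster reads in Fb and 17.6% in ESC exosomes. Without miR-541-5p the Mirg end held 47.6% in Fb and 69.7% in ESC exosomes. The share of Rian rests on miR-341-3p, and that of the Meg3 end in ESC exosomes on miR-493-5p. In Fb exosomes miR-673-5p gave more of the Meg3 end, with 13.7 reads against 7 for miR-493-5p. Without miR-493-5p the Meg3 end held 0.848% in Fb and 0.613% in ESC exosomes, and Rian without miR-341-3p is miR-370-3p with 1 read in each group. As CPM, Rtl1 members summed to 1703 ± 299 in Fb and 14.1 ± 0.905 in ESC exosomes, a ratio of 120, and the ratio for Mirg was 49.6. The Meg3 end summed to 0, 56.2 and 107 CPM in Fb, against 6.46, 5.41 and 3.94 CPM in ESC exosomes, so the groups overlapped there.

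**Figure D4:**
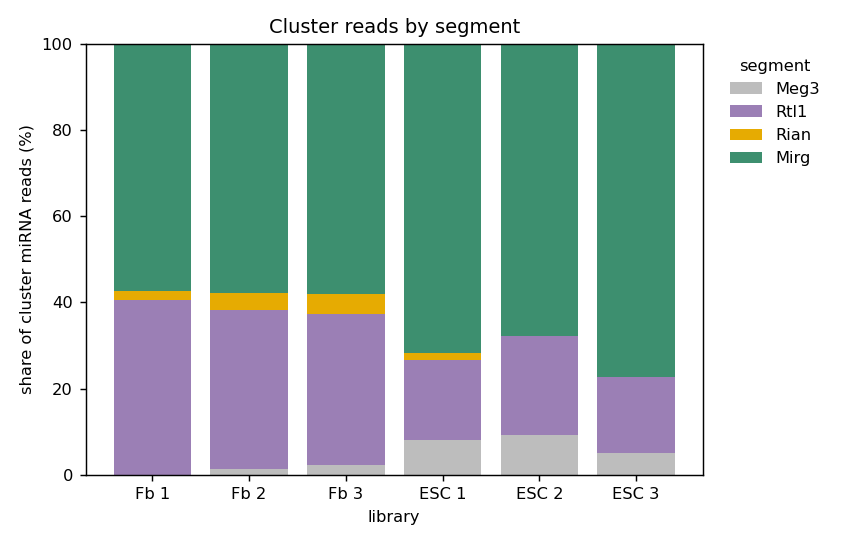
Share of cluster miRNA reads in percent from each of 4 segments, as 1 stacked bar per library, with Fb exosomes left of ESC exosomes. The Rtl1 segment reaches 40.6% in Fb replicate 1, and at most 23.2% in an ESC library.

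Arm use could be described but not tested. Among the 11 hairpins with both arms in the list, 0 had 5 or more reads in every library, so the values are summed reads with exact Clopper-Pearson intervals. Reads of both arms were found in Fb exosomes for 6 of them, miR-337, miR-434, miR-136, miR-299a, miR-380 and miR-382. For miR-409, miR-369, miR-411 and miR-154 only 1 arm was read in either group.

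miR-434 favoured its 3p arm, with 50 reads of 5p and 232 of 3p in Fb exosomes, or 82.3% 3p (95% interval 77.3 to 86.5). ESC exosomes had 1 and 8 reads, or 88.9% 3p (51.8 to 99.7), and the intervals overlap. miR-299a gave 95.8% 3p in Fb (85.7 to 99.5) and 100% of 7 reads in ESC exosomes (59.0 to 100). miR-409 was read from its 3p arm in 74 of 74 Fb and 27 of 27 ESC reads, and miR-411 from its 5p arm in 19 of 19 and 47 of 47.

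miR-382 (hairpin at 109733771 to 109733846) was read from both arms in Fb exosomes, in different shares between libraries. miR-382-5p had 388, 99.9 and 92.6 CPM in Fb, against 0, 0.676 and 1.31 CPM in ESC exosomes. miR-382-3p had 0, 157 and 177 CPM in Fb and 0 in every ESC library. The 5p arm was highest in Fb replicate 1, where the 3p arm had 0 reads (a count that allows up to 61.2 CPM).

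The 3p arm gave 0%, 61.2% and 65.6% of miR-382 reads in Fb replicates 1 to 3. Summed over these unlike libraries it gave 50.5% (95% interval 40.2 to 60.8, for counting error only), and 63.0% without Fb replicate 1. The 5p arm passed the test (edgeR log2 fold change 7.26, SE 0.87, adjusted p = 6.36e-04). Its log2 fold change was 6.53 without Fb replicate 1, 6.63 without ESC replicate 1 and 7.97 without ESC replicate 3. The 3p arm did not enter that fit and passed the 5-read fit (edgeR adjusted p = 0.00127). With ESC set to the floor of 3 reads its excess in Fb exosomes was 208-fold. The lower end of its exact 95% counting interval was 163-fold.

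Over the whole cluster the arms held shares that overlapped between the groups. The 3p arms held 62.8% ± 3.66 of cluster reads in Fb and 63.5% ± 5.22 in ESC exosomes (SD, n = 3 each). Of the 21 members of the 3p arm with 5 or more reads 17 were called higher in Fb exosomes in the 5-read fit, and of the 11 of the 5p arm 9 were (background 15.0%).

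**Figure D5:**
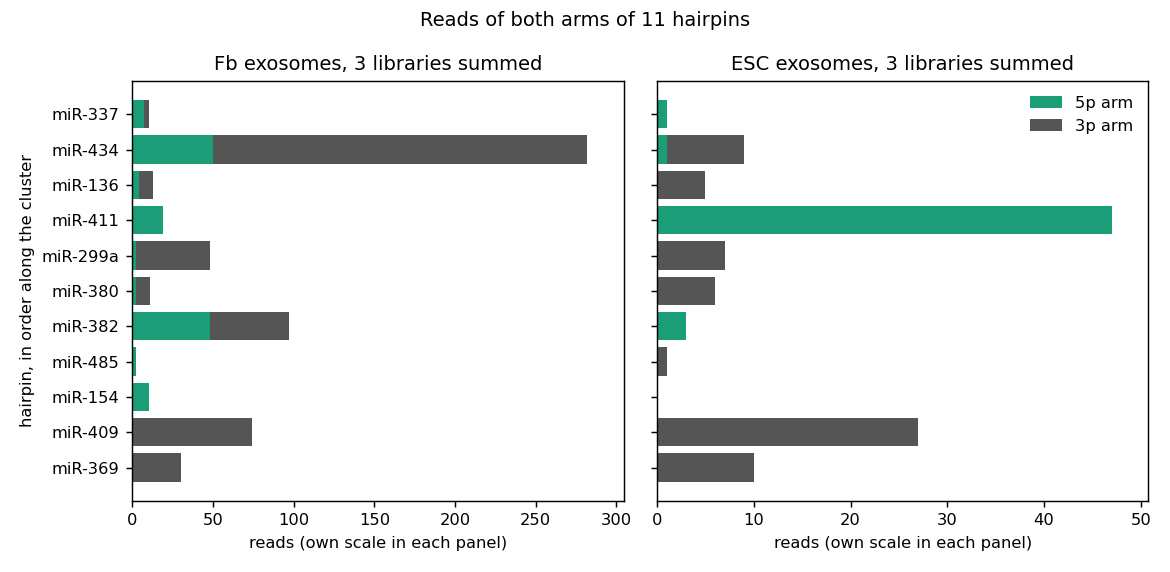
Summed reads of the 5p and 3p arms of the 11 hairpins with both arms in the list, in order along the cluster, for 3 Fb exosome libraries (left) and 3 ESC exosome libraries (right), each panel on its own scale. miR-434 has 282 Fb reads, mostly 3p, miR-382 has 48 reads of 5p and 49 of 3p in Fb, and miR-411 leads in ESC with 47 reads of its 5p arm.

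The 24 members under 5 reads add little. The 9 with 0 reads were miR-154-3p, miR-369-5p, miR-377-3p, miR-409-5p, miR-411-3p, miR-412-5p, miR-539-5p, miR-666-5p and miR-679-5p, and at the floor of 3 reads over a group they were below 8.68 CPM in Fb and 0.683 CPM in ESC exosomes. Of the other 15, 10 had Fb reads only: miR-136-5p, miR-495-3p and miR-667-3p with 4 each, miR-337-3p with 3, miR-770-3p, miR-299a-5p, miR-380-5p, miR-376b-3p and miR-485-5p with 2 each, and miR-329-3p with 1. ESC reads only were found for miR-758-3p, miR-485-3p and miR-668-3p, at 1 read or less. miR-665-3p had 3 Fb reads and 1 ESC read.

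Other RNAs of the same locus had few reads. Outside the list, 52 further mature miRNAs come from hairpins between Meg3 and Mirg, with 45 Fb and 9 ESC reads in all, against 1500 and 318 for the members. Of these 4 had 5 or more reads (miR-127-5p, miR-431-3p, miR-376b-5p and miR-666-3p), and 4 were called higher in Fb exosomes in the 5-read fit (edgeR adjusted p = 0.0213, 0.00745, 0.0271 and 0.0213; background 15.0%). All 4 met that filter through their Fb reads, with 1 ESC read or less each, so their calls are a description only. miR-376b-5p rested on 7 reads of Fb replicate 2 alone. The 23 small nucleolar RNA genes of the locus held 11.3 Fb and 2.80 ESC reads.

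The rows of the host RNAs were read separately. Meg3 held 24.4, 0.333 and 1.97 reads in Fb and 27.6, 25.5 and 20.1 in ESC libraries, and Mirg 10.1, 1.61 and 2.19 in Fb and 22.5, 11.8 and 6.48 in ESC libraries. In a fit of all 2999 RNAs that passed the filter, where 8.17% were called higher in Fb and 3.63% higher in ESC exosomes, neither passed (edgeR log2 fold change -0.59, SE 0.57, adjusted p = 0.636 for Meg3 and -0.33, SE 0.63, adjusted p = 0.848 for Mirg).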

How the data were processed

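Small RNA of exosomes was measured in 6 libraries, built with a CleanTag kit, per the labels' protocols. The deposited values are estimated counts per non-coding RNA, made by the authors. The submitters' processing notes name FastQC, cutadapt and the build GRCm38; the sources used here do not give the aligner, counter, strand use or division of shared reads. Fractional values occurred for 17 of the 56 members. Without molecular identifiers, intervals (exact, 95%) and floors (3 reads per group) cover counting error only.

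Rounded counts of mature miRNAs were tested by edgeR 4.0.16 (R 4.3.3) by quasi-likelihood with TMM factors, filterByExpr (minimum count 10, minimum total 15), group only, and a Benjamini-Hochberg adjusted p of 0.05. Standard errors are the log2 fold change over the root of F. The test was also run on simulated counts. That run used a common dispersion and changed only miRNAs better read than most members in ESC exosomes. It therefore says little about members with few reads. Intervals used scipy 1.17.1. Positions are from GENCODE M21.

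Alternatives were DESeq2 1.42.0, limma 3.58.1 (trend), other scalings and filters, unrounded counts, all RNAs in the fit, a replicate block and each library left out. Members and lists were chosen with earlier results of these data known. Members with per-library values are the 12 with the most reads and any called with 50 or more reads; the others named were chosen after their values were seen.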

Additional observations from a re-analysis of the deposited data

How the results depend on the processing

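The 18 members called were admitted by a filter met through their Fb reads, so their calls under other settings are no independent support. All 18 were called again under DESeq2, limma-trend, library totals alone, upper-quartile and relative log expression factors, unrounded counts, no count filter, the 5-read filter and the replicate block. Leaving out a library lost 1 of them, miR-323-3p without Fb replicate 3, with 15 to 17 of the 18 tested. The number called higher in Fb exosomes was 30 with no count filter, 3 of 3 tested with at least 20 reads in each group, and 7 of 8 tested when fitted with all RNAs, as other numbers of members were tested. The number called higher in ESC exosomes was 0 in all of these, where the low ESC levels and the shallow Fb libraries left such a call hardly possible.

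Over all miRNAs, 90 were called higher in Fb and 71 in ESC exosomes. Fitted with all RNAs 16 were higher in Fb and 53 in ESC exosomes, and with at least 20 reads in each group 50 and 48. With the replicate block 69 and 45 were, and leaving out a library gave 62 to 110 and 38 to 103. The lowest ESC counts were 38 without Fb replicate 3, 38 without ESC replicate 3 and 46 without ESC replicate 1. Same-numbered libraries correlated at -0.247, -0.153 and -0.142 in their deviations from group means, and differently numbered ones at -0.251 to 0.340. With 3 libraries per group these deviations depend on each other, so they cannot show whether same-numbered libraries share more than a number. With the replicate block 18 cluster miRNAs were called. The median log2 fold change of all miRNAs was 0.11, 0.52 with library totals alone and -1.15 when fitted with all RNAs.

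Of 158 alternative fold changes of the 10 most abundant members tested in the main fit, 0 changed sign and 3, all of miR-411-5p, newly passed. miR-376c-3p and miR-382-3p, also among the 12 most abundant, did not enter that fit and are not counted. The log2 fold change of miR-376c-3p took either sign, at -0.36 without Fb replicate 3, 0.35 without Fb replicate 2 and -0.04 in the 5-read fit. The log2 ratio of the cluster's share was 5.97, and 5.84 to 6.05 without any one library. It was 2.64 as a share of all assigned reads and 5.40 without the 3 most abundant members. Without its most abundant member, the segment share of the remaining cluster reads was 24.8% for Rtl1, 47.6% for Mirg and 0.0634% for Rian (1 read of miR-370-3p) in Fb exosomes, and 0.613% for the Meg3 end in ESC exosomes.

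Depth limits what can be said of members under about 10 reads. In Fb replicate 1, 3 reads are worth 61.2 CPM, against 16.9 and 25.3 CPM in the other Fb libraries.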
